A study of Mus musculus with 12 samples.

Results

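Bone morphogenetic proteins (BMPs) are secreted ligands of the transforming growth factor beta family, and 9 genes of their pathway were followed here by symbol: the ligands Bmp2, Bmp4, Bmp6 and Bmp7, the type I receptor Bmpr1a, and the secreted regulators Chrdl1, Bmper, Nog and Grem1. All 9 were found among the 24422 features of the count tables, and all 9 passed the low-count filter that left 16713 genes for testing. BMP dimers bring type I and type II receptors together, the receptors phosphorylate Smad1, Smad5 and Smad9, and these enter the nucleus with Smad4 and switch on genes such as the Id family. Outside the cell, antagonists bind the ligands and keep them from the receptor. In adipose tissue the pathway is known for its part in committing mesenchymal precursors to the adipocyte lineage, with BMP4 linked to white and BMP7 to brown and beige fat cells.

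RNA was sequenced from stromal cells of mouse adipose tissue, the stromal vascular fraction (SVF) that remains once mature adipocytes are removed. The 12 libraries formed 4 groups of 3. Mice labelled p21+/mcherry received standard food (replicates 1, 2 and 3, here SD mCherry) or a high-fat diet (replicates 15, 17 and 20, here HFD mCherry). Mice labelled p21+/mcherry-Tert (replicates 25, 26 and 27, here HFD Tert) and p21+/mcherry-TertCi (replicates 30, 31 and 33, here HFD TertCi) received the high-fat diet. Tert is the catalytic subunit of telomerase, and TertCi is its catalytically inactive form. Every group thus carried an mCherry cassette at 1 allele of p21 (Cdkn1a, a cell cycle inhibitor), so that none had 2 unmodified p21 alleles, and the p21 promoter drives the transgene only where that promoter is active. The design text names the high-fat control p21+/- without mCherry, and the sample labels were followed. Sex, age, fat depot and the pooling of animals are not given in the labels. No label says that the replicates were separate animals, so the p-values measure only the spread between these libraries, of which part may be technical. That spread was well beyond counting noise, with a chi-square per degree of freedom of 20 to 336 between libraries of 1 group.

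Libraries held 16430330 to 19486965 counts. The added feature mCherry_Tert had 0 counts in all 6 mCherry libraries and 33 to 86 counts in the 6 Tert and TertCi libraries. Markers of adipose progenitors (12 genes) summed to 3790 to 24500 CPM, those of adipocytes (10 genes) to 134 to 2760 CPM, and those of T and B cells (8 genes) to 7.76 to 31 CPM. Markers of the epididymis epithelium, a tissue that lies against the epididymal fat pad, stood at very different levels: Crisp1 was over 500 CPM in 8 libraries and under 1 CPM in 4 (replicates 2, 20, 27 and 31), 1 in each group. For Bmp4, Bmp7, Bmpr1a, Bmper and Nog, values within the 8 libraries with Crisp1 are given below. These 8 were not matched for epididymis content. HFD mCherry 17 was near the cutoff, at 641 CPM of Crisp1 and a mean epididymis marker level of 0.464 log2 CPM. HFD mCherry 15 had the highest such level, 10.3, and the others of the 8 had 2.41 to 7.52. By the summed CPM of the same markers it was not the highest. It had 21600 CPM, below SD mCherry 3 (57300), HFD TertCi 30 (33300) and HFD TertCi 33 (27300 CPM). In these bulk samples, fewer cells of a type and less RNA per cell cannot be told apart.

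The promoters of Bmp4 and Bmper are shown, 2 genes picked after their values were seen. The windows surround annotated starts, and counts per gene do not tell which start was used. RefSeq promoter windows of build GRCm38.p6, from 250 bases before to 50 bases after the start, were at hand for 5 of the 9 genes: Bmp4, Bmp6, Bmpr1a, Grem1 and Bmper. The Bmp4 window lies at chr14:46390620-46390919 on the minus strand and the Bmper window at chr9:23222826-23223125 on the plus strand. Capitals mark GGAGCC or its reverse complement GGCTCC, a GC-rich sequence of the kind bound by BMP-activated Smads.
Bmp4: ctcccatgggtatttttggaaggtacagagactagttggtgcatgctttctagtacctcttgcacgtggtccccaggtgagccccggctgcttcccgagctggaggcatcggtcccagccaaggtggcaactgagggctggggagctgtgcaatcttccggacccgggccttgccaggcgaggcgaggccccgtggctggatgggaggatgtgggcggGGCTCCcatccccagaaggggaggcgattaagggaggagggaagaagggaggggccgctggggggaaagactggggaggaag
Bmper: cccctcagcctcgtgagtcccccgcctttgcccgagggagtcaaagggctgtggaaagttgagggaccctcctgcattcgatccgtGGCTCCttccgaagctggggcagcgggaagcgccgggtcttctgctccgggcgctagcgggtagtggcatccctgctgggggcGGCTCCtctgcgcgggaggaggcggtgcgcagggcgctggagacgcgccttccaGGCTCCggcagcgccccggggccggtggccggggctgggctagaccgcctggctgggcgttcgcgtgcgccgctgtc
The Bmp4 window held 1 match and the Bmper window 3, all read as GGCTCC on the strand shown. Of 32851 RefSeq promoter windows of the same length, 30.8% held this motif on either strand. The related palindrome GGCGCC, present in 11.9% of windows, and the Smad-binding sequence CAGAC (both strands), present in 49.6%, had 0 matches in either window. GC content was 64.0% for Bmp4 and 72.7% for Bmper, beside a median of 52.7% over all windows. The letters are a description only and no binding was measured here.

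Levels are given as CPM, the counts of a gene relative to the TMM-scaled library size, with group means ± standard deviation over 3 libraries. Per kilobase of summed exon length, Bmpr1a had the highest mean level over the 12 libraries at 18.7 CPM per kb, followed by Bmp4 at 16.6, Chrdl1 at 13.9, Bmp6 at 11.5, Bmp2 at 11.4 and Bmper at 9.11 CPM per kb. Nog at 5.36, Bmp7 at 5.29 and Grem1 at 0.751 CPM per kb were the lowest. The genes also differed in how far they ranged: the highest library exceeded the lowest 34.1-fold for Bmper, 25.1-fold for Bmp7 and 18.8-fold for Grem1, and 2.81-fold for Bmpr1a. The plot of all 9 genes by library shows these values.

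**Figure D1:**
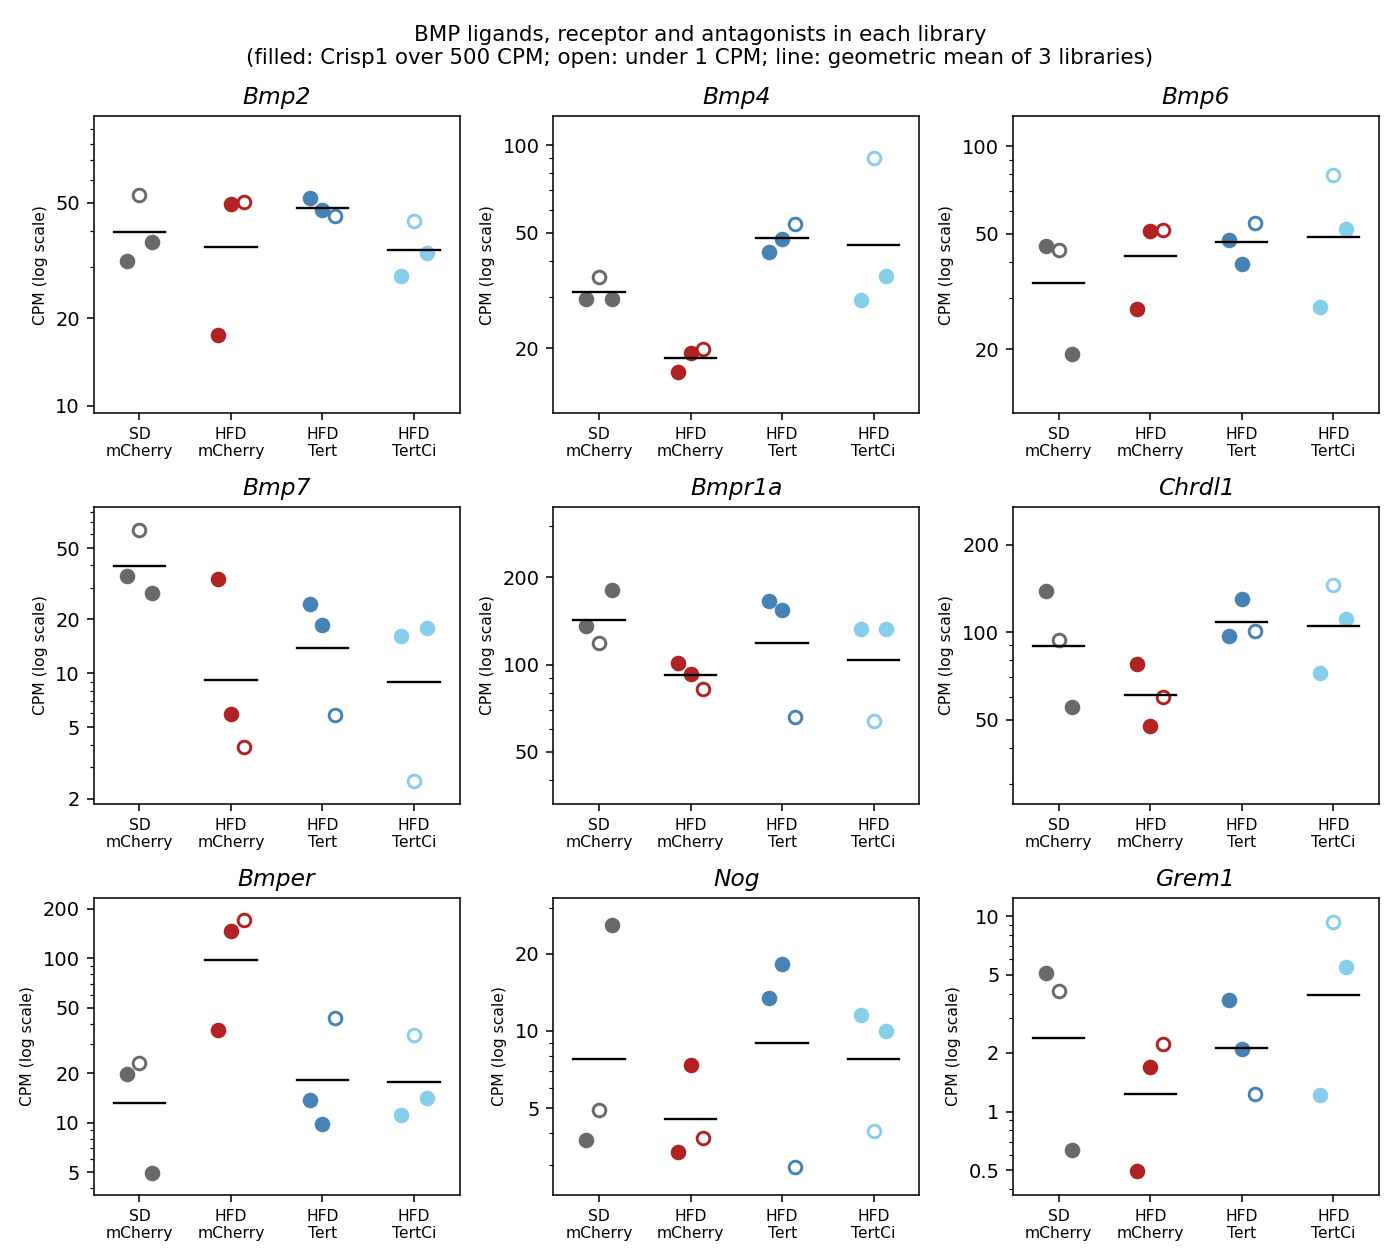
Level of each of the 9 genes (CPM, log scale) in the 12 libraries by group, with a line at the geometric mean of the 3 libraries; filled points are the 8 libraries with Crisp1 over 500 CPM and open points the 4 under 1 CPM. Bmper stood at 36.6 to 170 CPM in HFD mCherry and at 4.98 to 43.4 CPM elsewhere, and Bmp4 was lowest in the 3 HFD mCherry libraries.

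Of the ligands, Bmp4 was the 1 whose HFD mCherry libraries overlapped no other group. Of all tested genes, 25.5% did not overlap by diet, 21.1% in HFD Tert and 21.5% in HFD TertCi against HFD mCherry. The share apart from every other group at once was not counted. Bmp4, on chromosome 14 from 46383520 to 46390669 in GRCm38, encodes a ligand known to commit precursor cells to the white adipocyte lineage. It stood at 29.6, 35.1 and 29.5 CPM in SD mCherry, 16.6, 19.3 and 19.8 CPM in HFD mCherry, 42.7, 47.6 and 53.4 CPM in HFD Tert, and 29.2, 90.6 and 35.5 CPM in HFD TertCi. The HFD mCherry libraries were the lowest 3 of all 12. The order of group means was HFD mCherry (18.6 ± 1.70 CPM), SD mCherry (31.4 ± 3.18), HFD Tert (47.9 ± 5.38) and HFD TertCi (51.8 ± 33.8 CPM), and of the neighbours in this order the libraries of HFD Tert and HFD TertCi overlapped, while the others did not. Raw counts behind these values were 301 to 1407. Bmp4 overlaps Gm15217 on the opposite strand, which had 9 to 182 counts, and because strand use is not stated the reads of the pair cannot be told apart.

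Bmp4 was 1.69-fold lower in HFD mCherry than in SD mCherry (log2 fold change -0.76 ± 0.36 SE), and this missed the threshold (adjusted p = 0.223, edgeR quasi-likelihood test with Benjamini-Hochberg adjustment over 16713 genes, as for all adjusted p-values below unless another tool is named). Against HFD mCherry it was 2.58-fold higher in HFD Tert (log2 1.37 ± 0.36 SE, adjusted p = 0.189) and 2.79-fold higher in HFD TertCi (1.48 ± 0.36 SE, adjusted p = 0.186). In each of these all 3 libraries lay above all 3 HFD mCherry libraries. For the mean of both knock-ins the difference was 1.42 ± 0.33 SE (adjusted p = 0.0741). DESeq2 called the rise of Bmp4 in HFD Tert (adjusted p = 0.0251), in HFD TertCi (adjusted p = 0.0139) and for their mean (adjusted p = 0.00267), whereas limma-voom did not. The HFD TertCi value rested in part on replicate 31 at 90.6 CPM: without it the log2 difference was 0.80.

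Bmp7, the ligand linked to brown and beige adipocytes, also had a lower mean in HFD mCherry than in SD mCherry, with a wide spread. It stood at 35.1, 63.0 and 28.2 CPM in SD mCherry, 33.6, 5.95 and 3.88 CPM in HFD mCherry, 24.5, 18.6 and 5.82 CPM in HFD Tert, and 16.2, 2.51 and 17.8 CPM in HFD TertCi. HFD mCherry 15 lay within the SD mCherry range and the other HFD mCherry libraries lay below it. The log2 difference by diet was -1.54 ± 0.90 SE (adjusted p = 0.306). Without HFD mCherry 15 it was -3.10 and passed the threshold (adjusted p = 0.0482, with 12.2% of all genes called in that fit). That library had the highest mean log2 level of epididymis markers, though not their highest sum. Within the 8 libraries with Crisp1 the diet difference was -0.67. Among the high-fat groups the difference from HFD mCherry was 0.17 ± 0.88 SE in HFD Tert and -0.25 ± 0.88 SE in HFD TertCi. Both rested on single libraries: without HFD mCherry 15 they were 1.73 and 1.31, and without HFD mCherry 20 they were -0.28 and -0.70. The first also changed sign without HFD mCherry 17 (-0.20) or HFD Tert 25 (-0.25), and the second without HFD TertCi 31 (0.23).

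Bmp2, a ligand that acts through the same type I receptors as Bmp4, ranged from 17.6 to 53.4 CPM and its groups overlapped except in 1 comparison. Its values were 51.9, 47.2 and 45.0 CPM in HFD Tert and 28, 43.2 and 33.6 CPM in HFD TertCi, so that all 3 Tert libraries lay above all 3 TertCi libraries, by 0.46 ± 0.36 SE on the log2 scale (adjusted p = 1.0). In HFD mCherry it stood at 17.6, 49.7 and 50.4 CPM, and in SD mCherry at 31.6, 53.4 and 36.8 CPM. The spread within each of these groups exceeded the difference of their means.

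Bmp6, known as a ligand of endothelial cells and for its control of hepcidin and iron, ranged from 19.3 to 79.3 CPM. The group means were 36.2 ± 14.7 CPM in SD mCherry, 43.4 ± 13.8 CPM in HFD mCherry, 47.1 ± 7.66 CPM in HFD Tert and 53.1 ± 25.7 CPM in HFD TertCi, and the libraries of all neighbours in this order overlapped. By diet the log2 difference was 0.26 ± 0.42 SE with TMM scaling and -0.00413 with library-size scaling. Bmp6 overlaps Txndc5 on the opposite strand, which had 2277 to 5045 counts beside 333 to 1231 for Bmp6, so its counts are uncertain.

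Bmpr1a, a type I receptor that BMP2 and BMP4 bind, had 136, 119 and 180 CPM in SD mCherry and 101, 92.6 and 82.4 CPM in HFD mCherry. All HFD mCherry libraries lay below all SD mCherry libraries, by -0.66 ± 0.37 SE on the log2 scale (adjusted p = 0.287). The knock-ins did not form tight groups: HFD Tert had 166, 154 and 66.0 CPM, and HFD TertCi 132, 64.1 and 132 CPM. The low library of each was the 1 with Crisp1 under 1 CPM, and over all libraries Bmpr1a was at 64.1 to 119 CPM in the 4 without Crisp1 and at 92.6 to 180 CPM in the 8 with it. Within the 8 libraries with Crisp1 the diet difference was -0.71. Against HFD mCherry the differences were 0.48 ± 0.37 SE in HFD Tert and 0.25 ± 0.37 SE in HFD TertCi.

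Among the antagonists, Bmper (BMP-binding endothelial regulator, on chromosome 9 from 23223076 to 23485200) had the largest difference in size of the 9 genes in each comparison with HFD mCherry. The protein binds BMPs, and is known both to inhibit and to assist their signalling. It stood at 19.7, 23.0 and 4.98 CPM in SD mCherry, 36.6, 147 and 170 CPM in HFD mCherry, 13.8, 9.82 and 43.4 CPM in HFD Tert, and 11.2, 34.3 and 14.2 CPM in HFD TertCi. The HFD mCherry libraries lay above every SD mCherry and HFD TertCi library, and HFD Tert 27 lay above HFD mCherry 15. The group means were 15.9 ± 9.60, 118 ± 71.3, 22.3 ± 18.4 and 19.9 ± 12.6 CPM in the same order, and the libraries of SD mCherry, HFD TertCi and HFD Tert overlapped.

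Bmper was 7.41-fold higher in HFD mCherry than in SD mCherry (log2 2.89 ± 0.81 SE, adjusted p = 0.0891), which missed the threshold with edgeR and passed it with DESeq2 (adjusted p = 0.00347). Against HFD mCherry it was 5.28-fold lower in HFD Tert (log2 -2.40 ± 0.80 SE, adjusted p = 0.224) and 5.93-fold lower in HFD TertCi (-2.57 ± 0.80 SE, adjusted p = 0.226). DESeq2 called both as falls, with adjusted p = 0.0368 and adjusted p = 0.0276. For the mean of both knock-ins the log2 difference was -2.48 ± 0.63 SE (adjusted p = 0.086 with edgeR, adjusted p = 0.00573 with DESeq2). Without HFD mCherry 15 the diet difference was 3.32 (adjusted p = 0.0266) and the mean knock-in difference -2.91 (adjusted p = 0.0345, 4.04% of genes called). Without HFD Tert 27 the latter was -2.94 (adjusted p = 0.0372, 3.06% of genes called).

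In the 8 libraries with Crisp1 the log2 difference in Bmper was 2.88 by diet, beside 2.89 over all 12, and larger in size in HFD Tert (-2.95 beside -2.40) and HFD TertCi (-2.85 beside -2.57). In the 4 libraries without Crisp1, 1 per group, Bmper stood at 23.0 CPM in SD mCherry, 170 CPM in HFD mCherry, 43.4 CPM in HFD Tert and 34.3 CPM in HFD TertCi. Bmp4 in the same 4 libraries stood at 35.1, 19.8, 53.4 and 90.6 CPM. In the 8 libraries with Crisp1 the Bmp4 differences were -0.72 by diet, 1.33 in HFD Tert and 0.85 in HFD TertCi, the last below the 1.48 over all 12 libraries.

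Markers of macrophages moved with Bmper. The 10 listed genes summed to 1090 to 1170 CPM in SD mCherry, 2330 to 5840 CPM in HFD mCherry, 894 to 2340 CPM in HFD Tert and 1140 to 1650 CPM in HFD TertCi, with none at 0 in every library. HFD mCherry 15 was the lowest of its group and HFD Tert 27 the highest of its group for both the macrophage sum and Bmper. The same held for the progenitor and adipocyte sums given in the next paragraph, so this pattern was not particular to macrophages. In all of these HFD Tert 27 lay above HFD mCherry 15, at 2340 beside 2330 CPM for the macrophage sum. The 10 markers of lipid-associated macrophages summed to 477 to 891 CPM in SD mCherry, 1890 to 7400 CPM in HFD mCherry, 643 to 2670 CPM in HFD Tert and 623 to 1950 CPM in HFD TertCi. For these too, HFD Tert 27 lay above HFD mCherry 15.

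Other lists differed in the same comparison. The 12 progenitor markers summed to 3790 to 5370 CPM in SD mCherry and 8470 to 24500 CPM in HFD mCherry, with 6320 to 13800 CPM in HFD Tert and 5420 to 11800 CPM in HFD TertCi, both of which overlapped HFD mCherry. The 10 adipocyte markers, which share Lpl with the lipid-associated macrophage list, summed to 134 to 317 CPM in SD mCherry, 763 to 2760 CPM in HFD mCherry, 269 to 1300 CPM in HFD Tert and 264 to 817 CPM in HFD TertCi. Most of these 10 genes ran against their sum. By diet 4 were positive and 6 negative (median log2 difference -0.39), and edgeR called Cfd lower (0.0479% of all genes called). For the mean of both knock-ins 7 were positive and 3 negative (median 0.95), and edgeR called Cfd higher (0.168%). The part of these cell types in the Bmper result was not tested. The mesothelial markers (9 of 10 listed in the table) had lower sums in HFD mCherry than in SD mCherry. The sums were 1430 to 4500 CPM in SD mCherry and 392 to 1360 CPM in HFD mCherry, beside the lower Bmp4. They were 907 to 2630 CPM in HFD Tert and 1260 to 1710 CPM in HFD TertCi. Both knock-ins overlapped HFD mCherry in these mesothelial sums, unlike in Bmp4. The part of mesothelial cells was likewise not tested.

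**Figure D2:**
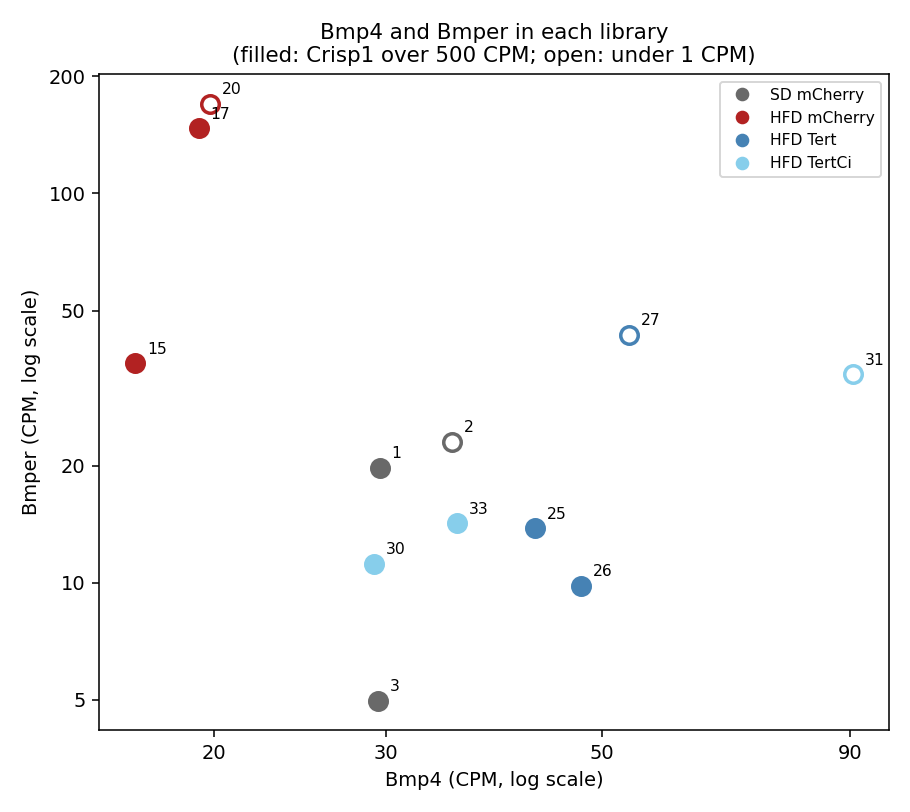
Bmp4 (x axis) and Bmper (y axis) in each library (CPM, both log scales), coloured by group and numbered by replicate, with open points for the 4 libraries with Crisp1 under 1 CPM. The 3 HFD mCherry libraries, at 16.6 to 19.8 CPM of Bmp4 and 36.6 to 170 CPM of Bmper, lie apart at the upper left.

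Set against each other within a library, the raw counts separated HFD mCherry from the rest. There were 2.20, 7.63 and 8.59 Bmper counts per Bmp4 count in the HFD mCherry libraries and 0.169 to 0.813 in the other 9. This ratio needs no scaling between libraries. It was formed after both genes' values had been seen and is a description.

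Chrdl1 (chordin-like 1, X chromosome) binds BMP4 and other ligands, and was the most abundant of the 4 antagonists per kilobase over the 12 libraries. It stood at 138, 94.1 and 55.3 CPM in SD mCherry, 77.8, 47.6 and 59.9 CPM in HFD mCherry, 96.9, 130 and 101 CPM in HFD Tert, and 72.5, 145 and 111 CPM in HFD TertCi. All HFD Tert libraries lay above all HFD mCherry libraries, and the other pairs of groups with HFD mCherry overlapped. The log2 differences from HFD mCherry were 0.82 ± 0.35 SE in HFD Tert (adjusted p = 0.284) and 0.83 ± 0.35 SE in HFD TertCi (adjusted p = 0.311). By diet the difference was -0.63 ± 0.35 SE (adjusted p = 0.283), and -0.28 without SD mCherry 1.

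Nog encodes noggin, which binds BMP2, BMP4 and BMP7 and covers their receptor-binding faces. It had 3.77, 4.90 and 25.8 CPM in SD mCherry, 3.37, 7.34 and 3.82 CPM in HFD mCherry, 13.4, 18.2 and 2.94 CPM in HFD Tert, and 11.5, 4.06 and 10 CPM in HFD TertCi. The diet difference of -1.25 ± 0.82 SE (adjusted p = 0.36) rested on SD mCherry 3 and was 0.16 without that library. Against HFD mCherry the differences were 1.25 ± 0.82 SE in HFD Tert and 0.82 ± 0.82 SE in HFD TertCi, with overlapping libraries. Within each knock-in group the library without Crisp1 was the lowest, as for Bmpr1a. In the 8 libraries with Crisp1 the Nog differences were -1.47 by diet, 1.56 in HFD Tert and 1.01 in HFD TertCi.

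Grem1 (gremlin 1), an antagonist of BMP2, BMP4 and BMP7, was the least expressed of the 9 genes, with 9 to 145 counts per library. It stood at 5.14, 4.12 and 0.637 CPM in SD mCherry, 0.497, 1.68 and 2.21 CPM in HFD mCherry, 3.73, 2.08 and 1.23 CPM in HFD Tert, and 1.22, 9.34 and 5.46 CPM in HFD TertCi. Its groups overlapped in every comparison. By diet the log2 difference was -1.17 ± 0.89 SE (adjusted p = 0.421), and -0.70 without SD mCherry 1. The log2 difference of HFD TertCi from HFD mCherry was 1.86 ± 0.91 SE (adjusted p = 0.374), and 1.19 without HFD TertCi 31.

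The make-up of each set was expressed as shares of summed CPM per kb within a library, as a description with no test. Bmper made up 35.8% to 75.1% of the 4 antagonists in HFD mCherry. Its share was 4.19% to 21.1% in SD mCherry, 6.27% to 34.7% in HFD Tert and 11% to 21.4% in HFD TertCi. Chrdl1 was the largest share in the knock-ins, at 55.2% to 59.2% in HFD Tert and 53.4% to 64.6% in HFD TertCi. Of the 4 ligands, Bmp4 made up 23.1% to 26.6% in HFD mCherry, 27.1% to 37.0% in SD mCherry, 36.6% to 45.9% in HFD Tert and 36.7% to 54.9% in HFD TertCi. The HFD mCherry libraries had the highest Bmper shares and the lowest Bmp4 shares of all 12.

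By comparison, the 9 genes gave the following counts, with the share of all tested genes that met the same rule. By diet, 0 of 9 passed the edgeR threshold (0.0479% of all genes), 1 of 9 had an unadjusted p under 0.05 (24.1%), and 3 of 9 had libraries that did not overlap (25.5%), namely Bmper upward and Bmp4 and Bmpr1a downward. DESeq2 called 1 of 9 (12.6% of genes) and limma-voom 0 of 9 (0.0% of genes). The members' counts in this comparison were near the background. The median log2 difference of the 9 was -0.66, beside -0.08 for all genes tested, with 7 of 9 negative under TMM scaling and 8 of 9 under library-size scaling, where Bmp6 changed sign. Library-size scaling moved the median of all genes by -0.20, to -0.28.

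The 3 comparisons with HFD mCherry that follow share its libraries with the diet comparison, so they are not independent of it. For HFD Tert against HFD mCherry, 0 of 9 passed with edgeR (0.0% of all genes), 3 had an unadjusted p under 0.05 (16.4%) and 2 had libraries that did not overlap (21.1%). DESeq2 called 2 of 9 (4.89%), Bmp4 and Bmper, and limma-voom 0 of 9 (0.0%). For HFD TertCi the counts were 0 with edgeR (0.012%), 3 at an unadjusted p under 0.05 (14.7%) and 2 without overlap (21.5%), with 2 called by DESeq2 (3.71%), the same pair, and 0 by limma-voom (0.012%). For the mean of both they were 0 (0.168%), 3 (21%) and 1 (13.0%), with 2 by DESeq2 (8.5%) and 0 by limma-voom (0.0718%). The median of the 9 was 0.48 in HFD Tert, 0.29 in HFD TertCi and 0.37 for their mean, where all genes had -0.05, -0.04 and -0.05. Library-size scaling moved the median of all genes by 0.10 in HFD TertCi and left the number of positive members there at 6.

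With the mean log2 level of the epididymis markers as a covariate, edgeR called Bmper by diet (12.1% of all genes called) and in HFD Tert (7.35%). It called Bmper and Bmp4 in HFD TertCi (6.02%) and for the mean of both knock-ins (12.5%). With Crisp1 over 500 CPM as a 2-level covariate it called Bmper by diet (9.02%) and both genes for the mean (4.3%).

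HFD Tert and HFD TertCi were compared directly to ask whether the catalytic activity of Tert mattered for these genes. With edgeR 0 of 9 passed (0.0% of all genes), 0 had an unadjusted p under 0.05 (1.36%) and 1, Bmp2, had libraries that did not overlap (5.13%). DESeq2 (0.0487%) and limma-voom (0.0%) called 0 of 9. The difference of Bmp4 was -0.11 ± 0.36 SE, that of Bmper 0.17 ± 0.76 SE and that of Chrdl1 -0.00509 ± 0.348 SE on the log2 scale. The errors leave room for differences, and missing the threshold does not show that the forms acted alike.

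**Figure D3:**
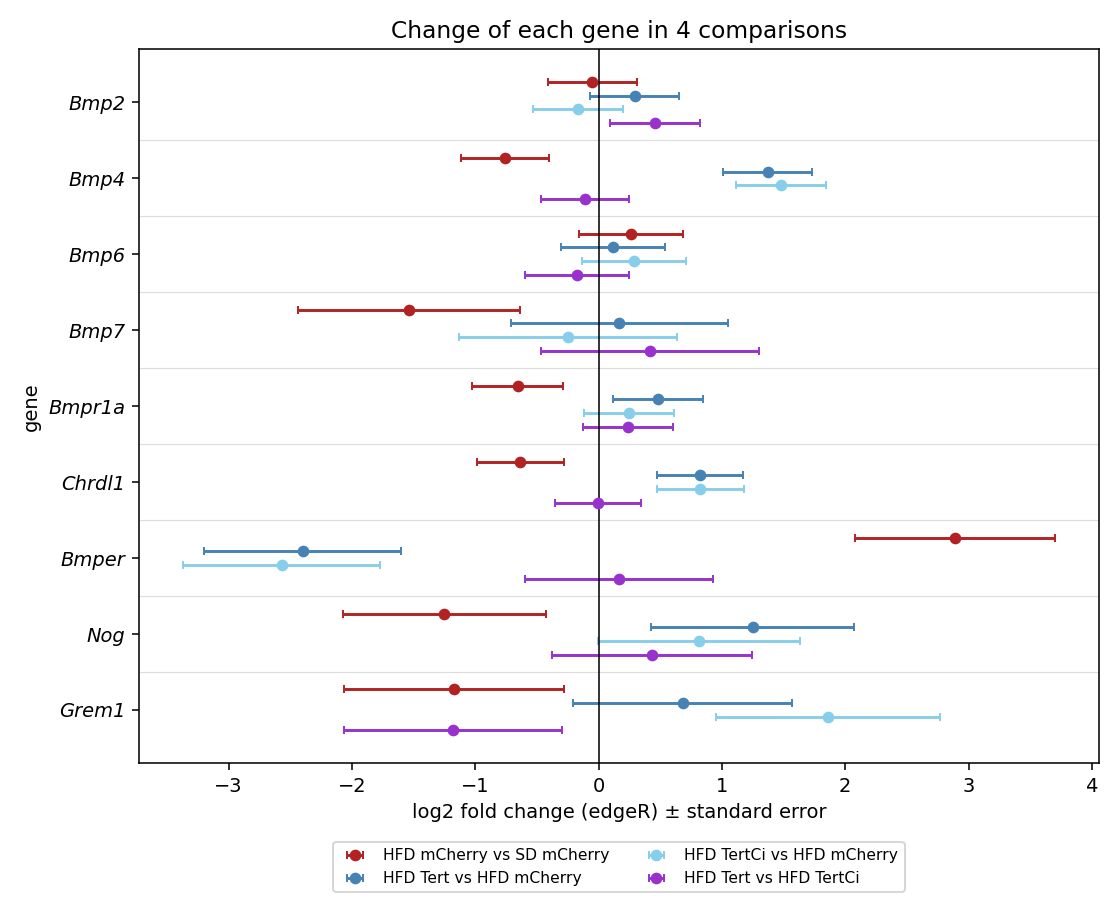
Log2 fold change of each gene with its standard error (edgeR) by diet, for each knock-in against HFD mCherry, and between the knock-ins. Bmper lies at 2.89 by diet and at -2.40 and -2.57 in the knock-ins, Bmp4 at -0.76, 1.37 and 1.48, and none passed an adjusted p of 0.05.

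Other genes of the pathway were described by lists of other ligands, receptors, antagonists, Smads with their regulators, and target genes. With edgeR 0 genes of any list passed in any comparison. Of the 8 other ligands tested, 3 were positive and 5 negative by diet (median -0.40), with 1 in each direction at an unadjusted p under 0.05. DESeq2 called 2 of the list by diet (12.6% of all genes), Gdf6 upward and Bmp3 downward. Bmp3, a ligand known to oppose other BMPs, stood at 54.2 ± 49.4 CPM in SD mCherry, 5.94 ± 3.67 CPM in HFD mCherry, 56.0 ± 53.1 CPM in HFD Tert and 82.6 ± 79.6 CPM in HFD TertCi. Gdf10, the most abundant, stood at 115 to 138 CPM in every group's mean. Gdf6 had at most 5.91 CPM in a library.

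The 10 other receptors and co-receptors tested had a median of 0.61 by diet, with 8 positive and 2 negative where 45.9% of all genes were positive, and 5 upward and 1 downward at an unadjusted p under 0.05 (14.1% and 10% of all genes). Eng (endoglin, an endothelial co-receptor) stood at 148 ± 25.6 CPM in SD mCherry and 288 ± 111 CPM in HFD mCherry (0.96 ± 0.39 SE, adjusted p = 0.173). Bmpr2, a type II receptor, differed by 0.73 ± 0.28 SE (adjusted p = 0.166), and Acvrl1, an endothelial type I receptor, by 1.26 ± 0.46 SE (adjusted p = 0.143). Bmpr1b, another BMP type I receptor, was at 51.2 ± 23.6 CPM in SD mCherry and 13.6 ± 13.1 CPM in HFD mCherry (-1.91 ± 0.69 SE, adjusted p = 0.144). DESeq2 called 2 of the 10 by diet (12.6% of all genes), Bmpr1b downward and the co-receptor Rgmb upward. Endothelial markers (10 genes) summed to 953 to 1310 CPM in SD mCherry and 1780 to 3240 CPM in HFD mCherry beside the higher Eng and Acvrl1, and their part was not tested.

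Of the 14 genes tested in the list of other antagonists, 6 were positive and 8 negative by diet (median -0.18). The list also held the proteases Bmp1 and Tll1, both positive by diet, so these counts are not of antagonists alone. DESeq2 called 3 (12.6% of all genes), Bmp1 upward and Chrd and Sostdc1 downward. Nbl1, the most abundant, stood at 271 to 317 CPM in the 4 group means. Crim1, a membrane-anchored BMP-binding protein, was 129 ± 30.8 CPM in SD mCherry, 146 ± 26.6 CPM in HFD mCherry, 239 ± 49.3 CPM in HFD Tert and 239 ± 111 CPM in HFD TertCi (0.72 ± 0.29 SE for the mean knock-in difference, adjusted p = 0.202). Bmp1, a protease that cleaves chordin and procollagens rather than a BMP ligand, differed by 1.82 ± 0.54 SE by diet (adjusted p = 0.0958) and was among the DESeq2 calls. Sost ranged from 0.242 to 331 CPM within SD mCherry, and from 0.0 to 24.1 CPM in HFD mCherry.

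The 8 Smads and regulators split 4 to 4 in the diet comparison and for the mean of both knock-ins. Smad1, a receptor-activated Smad, stood at 84.2 ± 15.1 and 84.2 ± 7.64 CPM in the SD and HFD mCherry groups. The ubiquitin ligases that target Smads, Smurf2 (0.69 ± 0.22 SE, adjusted p = 0.112) and Smurf1 (1.03 ± 0.33 SE, adjusted p = 0.116), had higher means in HFD mCherry. DESeq2 called 1 of the 8 by diet, Smurf1 (12.6% of all genes called). Smad9 was at 5.75 ± 3.65 CPM in SD mCherry and 1.66 ± 1.04 CPM in HFD mCherry.

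The 10 target genes were mostly lower in HFD mCherry than in SD mCherry or the knock-ins, though none passed with edgeR. By diet 3 were positive and 7 negative (median -0.51), with 0 upward and 3 downward at an unadjusted p under 0.05 (14.1% and 10% of all genes), and for the mean of both knock-ins 9 were positive and 1 negative (median 0.56), with 4 upward and 0 downward (7.56% and 13.4% of all genes). Id1, an inhibitor of basic helix-loop-helix factors that BMP Smads induce, stood at 182 ± 121 CPM in SD mCherry, 44.8 ± 10.5 CPM in HFD mCherry, 239 ± 130 CPM in HFD Tert and 148 ± 77.3 CPM in HFD TertCi. For Id1 all 3 HFD mCherry libraries lay below every other library, a separation whose share over all genes was not counted. Its log2 difference was -2.03 ± 0.60 SE by diet (adjusted p = 0.0964) and 2.07 ± 0.56 SE for the mean of both knock-ins (adjusted p = 0.0946). Id3, the most abundant target, was at 529 ± 345, 285 ± 91.9, 540 ± 117 and 568 ± 103 CPM in the same order. Msx2 was at 13.6 ± 10.2, 1.13 ± 0.753, 8.88 ± 7.84 and 4 ± 3.55 CPM, and Atoh8 had the most positive diet difference of the list, 0.53 ± 0.48 SE. DESeq2 called 3 of the targets downward by diet (12.6% of all genes called in either direction) and 3 upward for the mean of both knock-ins (8.5%), in each case Id1, Id2 and Id4, of which Id2 and Id4 are named after their values were seen.

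Sums and medians of other cell type markers moved with the target genes, though the pericyte and smooth muscle list was split. The 10 pericyte and smooth muscle markers summed to 2900 to 19100 CPM in SD mCherry, 1890 to 3140 CPM in HFD mCherry, 3110 to 19400 CPM in HFD Tert and 4250 to 12400 CPM in HFD TertCi, with a median log2 difference of -0.97 by diet and 1.09 for the mean of both knock-ins. In the 4 libraries without Crisp1 the sum was 2900 CPM in SD mCherry and 1890 CPM in HFD mCherry. It was 3110 CPM in HFD Tert 27 and 4250 CPM in HFD TertCi 31. In the 8 libraries with Crisp1 it was 6870 and 19100 CPM in SD mCherry and 2330 and 3140 CPM in HFD mCherry. The knock-in libraries with Crisp1 had 10900 to 19400 CPM. The part of epididymis content in these sums was not tested. Of the 10 pericyte and smooth muscle genes, 4 were positive and 6 negative by diet, and 7 were positive and 3 negative for the mean of both knock-ins. The mesothelial markers had medians of -1.27 and 1.67 in the same comparisons. Of these, 1 was positive and 8 negative by diet, and 8 were positive and 1 negative for the mean. Their part in the target gene result was not tested.

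**Figure D4:**
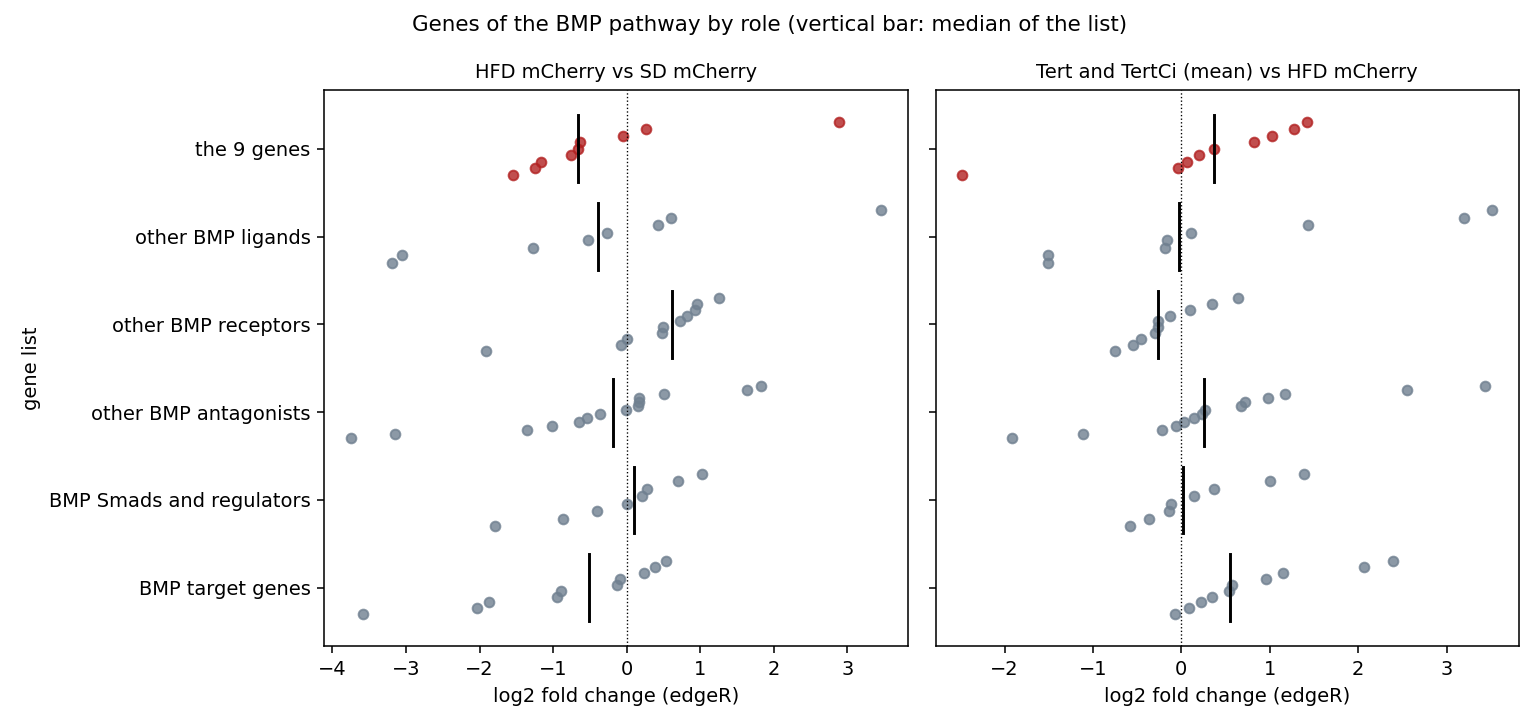
Log2 fold change (edgeR, x axis) of each tested gene in 6 lists of the pathway, by diet (left) and for the mean of HFD Tert and HFD TertCi against HFD mCherry (right), with a bar at each list's median. The target genes have a median of -0.51 on the left and 0.56 on the right, and the panels share the HFD mCherry libraries.

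The genes most like each of the 9 were sought by Pearson's r of log2 CPM over the 12 libraries among 12357 tested genes that averaged 5 CPM or more. The libraries share group structure and tissue makeup, so these values are descriptions. Bmper was most like Tmem106a (r = 0.99, Spearman's rho = 0.986), Cd180 (r = 0.99, rho = 0.986) and Amz1 (r = 0.989, rho = 0.972). Cd180 encodes a Toll-like receptor homologue of B cells and macrophages. Bmp4 was most like Tmem158 (r = 0.963) and Ppp1r14a (r = 0.958).

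For the other genes the nearest patterns were as follows. Bmpr1a was most like Car14 (r = 0.986), Bmp7 like Elp4 (r = 0.976), Nog like Cnih4 (r = 0.969) and Bmp6 like Adgra2 (r = 0.961). Flt4, the lymphatic endothelial receptor VEGFR3, followed for Bmp6 at r = 0.951. Bmp2 was most like Rab3d (r = 0.937), Chrdl1 like Angpt4 (r = 0.894) and Grem1 like Ulk1 (r = 0.869). The last values are lower, and all were the highest of 12357 genes searched.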

How the data were processed

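Poly-T selected RNA of adipose stromal cells was sequenced as 12 libraries, per the labels' protocols. The authors deposited 1 table of raw counts per gene symbol for each library. Reads were counted with featureCounts 1.6.4 (Subread) on build mm10, with SAMtools, per the submitters' processing notes. The aligner, annotation and use of strand are not given in the sources used here.

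Counts were tested as deposited with edgeR 4.0.16 in R 4.3.3: filterByExpr (16713 of 24422 genes), TMM factors (0.854 to 1.15), and 1 robust quasi-likelihood fit of 4 group means to all 12 libraries, 2-sided, with Benjamini-Hochberg adjustment over all genes tested and a threshold of 0.05. The mean of both knock-ins is a contrast of the same fit. DESeq2 1.42.0, limma-voom (limma 3.58.1), other scalings and filters, an epididymis covariate and leaving out each library were alternatives. The test was checked on simulated counts for the diet comparison, with 200 genes changed. At the dispersion of these data it recovered 38% of log2 changes of 2 and 83% of log2 changes of 4. With the dispersion multiplied by 0.1 it recovered 91.5% and 99%. Exon lengths and coordinates came from GENCODE M21 (GRCm38, the sequence of mm10), promoters from RefSeq. Named pathway genes were any gene called, the 2 most abundant of each list, and those with the highest and lowest diet difference. Likeness took the 3 genes with the highest r for each member, of which the report gives at least the first. The 9 genes and all lists were chosen with earlier results of these data known. Total counts of 16430330 to 19486965 set the precision of low genes.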

Additional observations from a re-analysis of the deposited data

How the results depend on the processing

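The call of each of the 9 genes was repeated under each alternative. The number called by diet was 1 with DESeq2 (12.6% of all genes), 1 with the epididymis covariate (12.1%) and 1 with Crisp1 as a 2-level covariate (9.02%). When each library was left out it was 0 to 2, with 2 without HFD mCherry 15 (12.2%). In HFD Tert it was 2 with DESeq2 (4.89%) and 1 with the epididymis covariate (7.35%). In HFD TertCi these were 2 (3.71%) and 2 (6.02%). For their mean it was 2 with DESeq2 (8.5%), 2 with the epididymis covariate (12.5%) and 2 with the 2-level covariate (4.3%). On leaving out libraries the mean had 0 to 1, with 1 without HFD mCherry 15 (4.04%) or HFD Tert 27 (3.06%). With the epididymis covariate Bmper was called in these 4 comparisons. The 2-level Crisp1 covariate and the fit to the 8 libraries with Crisp1 were chosen after seeing the data. The cause of these changes was not tested.

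These log2 differences changed sign. By diet, Bmp6 was -0.00413 with library size only. In HFD Tert, Bmp6 was -0.0779 with the epididymis covariate. In HFD TertCi, Bmp7 was 0.0229 with limma-voom and 0.402 with the covariate. For the mean of both, Bmp7 was 0.294, 0.729 and, without the epididymis genes, 0.0182. Between HFD Tert and HFD TertCi, Bmp4 was 0.0844 with limma-voom, 0.00218 with the 2-level covariate and 0.482 in the 8 libraries, Chrdl1 0.0356, 0.00882 and 0.304, Bmp6 0.123 in the 8 libraries, and Bmper -0.176 with the epididymis covariate and -0.103 in the 8 libraries.

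Leaving out 1 library gave ranges that crossed 0. By diet they were -0.27 to 0.302 for Bmp2, -0.0414 to 0.505 for Bmp6 and -1.67 to 0.16 for Nog. In HFD Tert they were -0.0597 to 0.513 for Bmp2, -0.127 to 0.259 for Bmp6 and -0.279 to 1.73 for Bmp7. In HFD TertCi they were -0.519 to 0.0539 for Bmp2, -0.119 to 0.595 for Bmp6 and -0.697 to 1.31 for Bmp7. For the mean they were -0.289 to 0.283, -0.0416 to 0.356 and -0.488 to 1.52 for the same genes. Between HFD Tert and HFD TertCi they were -0.396 to 0.563 for Bmp4, -0.478 to 0.235 for Bmp6, -0.0613 to 0.821 for Bmp7, -0.752 to 0.812 for Bmper, -0.0364 to 0.55 for Bmpr1a, -0.23 to 0.245 for Chrdl1 and -0.0608 to 0.886 for Nog. Bmp4 and Bmper kept their sign in every alternative against HFD mCherry and by diet. No paired analysis was possible because no replicate number occurs in more than 1 group. With 3 libraries a group and a common biological coefficient of variation of 0.536, the spread between libraries limits what can be called.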
